A study of Mus musculus with 19 samples.

Results

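The small proline-rich (Sprr) genes encode building blocks of the cornified envelope, the cross-linked protein shell that forms under the membrane of keratinocytes as they end their life at the skin surface. The 10 members described here were all those on a fixed list of names: Sprr1a, Sprr1b, Sprr2a1, Sprr2a3, Sprr2b, Sprr2d, Sprr2e, Sprr2h, Sprr3 and Sprr4. They were taken from the count table by matching each Ensembl identifier to its symbol, and all 10 were found among 34807 genes. The table held 7 further Sprr genes (Sprr2a2, Sprr2c-ps, Sprr2f, Sprr2g, Sprr2i, Sprr2j-ps and Sprr2k). In tumours, 9 of the 10 members were raised over normal skin in both kinds of tumour, and Sprr4 was not. Among all 32031 genes tested, 20.4% were raised in Ivl tumours and 23.2% in K5/K14 tumours, the kinds described below.

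In the envelope, loricrin makes up much of the protein mass, involucrin is laid down early as a scaffold, and SPRR proteins act as short cross-bridges between the other components. Transglutaminases, above all transglutaminase 1, join these proteins through glutamine and lysine residues. Resting back skin makes little of most SPRR proteins, which are better known from the oral and oesophageal lining, from wounds and from hyperplastic or inflamed epidermis.

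The samples were 15 skin tumours and 4 samples of normal skin, all from female mice. Tumours were labelled squamous cell carcinoma and carried BRAFV600E, a constitutively active kinase of the MAPK pathway, with the genotypes Ivl:BRAFV600E (Ivl, n = 6), K5:BRAFV600E (K5, n = 5) and K14:BRAFV600E (K14, n = 4). The oncogene was switched on at 7 to 20 weeks of age with a tamoxifen-dependent Cre recombinase (CreERT2) driven by the involucrin promoter in Ivl mice, which acts in committed cells of the interfollicular epidermis, and by the keratin 5 or keratin 14 promoter in K5 and K14 mice, which act in basal cells. Normal skin was labelled WT, and the colony was kept on C57BL/6J. The inducer was not the same in all models: per the study's methods Ivl mice received tamoxifen and the others 4-hydroxytamoxifen, and Ivl tumours came up much later. Body site differed too: the study reports Ivl lesions on the back, paws, ears and lips, and K5 and K14 tumours on the back only. The site of each sequenced tumour was not used here. Driver, inducer, latency and body site cannot be told apart in a comparison of Ivl with K5 and K14 tumours. Whole tissue was sequenced, so fewer cells of a type and less RNA per cell cannot be told apart either. Nothing in the labels ties a library to a separate animal, and p-values measure the spread between these samples.

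All 17 Sprr genes of the table lay in 1 run of 284.7 kb on chromosome 3 (GRCm38, chr3:92215799-92500493), inside the epidermal differentiation complex. Sprr2a1 (chr3:92215799-92221911), Sprr2a3 (chr3:92285417-92291405), Sprr2b (chr3:92316620-92318085), Sprr2d (chr3:92339140-92340873), Sprr2e (chr3:92352143-92353449) and Sprr2h (chr3:92385685-92387324) are read from the plus strand. Sprr1b (chr3:92436809-92438789), Sprr3 (chr3:92456502-92458720), Sprr1a (chr3:92483952-92485895) and Sprr4 (chr3:92500263-92500493) follow on the minus strand. Each is annotated with 2 exons except Sprr4, which has 1 exon of 231 bases in this annotation.

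The Sprr2 genes are copies of one another, and reads can be split between them. For each gene the transcript was cut into overlapping windows of 101 bases, the read length, and the windows found letter for letter in another Sprr gene were counted. This share was 92.4% for Sprr2a1 and 35.8% for Sprr2a3, both shared with Sprr2a2 and with each other. It was 0.914% for Sprr2e, 0.292% for Sprr2b, and 0 for the other members. The span annotated for Sprr2a2 also overlaps Sprr2a1. Values of Sprr2a1 and Sprr2a3 taken singly are therefore uncertain, and a sum over the 6 Sprr2 members (the Sprr2 sum) is given beside them.

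Promoter windows, placed by the annotated start, are printed for 6 members because the results below separate their genes. Sprr1a, Sprr1b, Sprr2d and Sprr2h were all raised in tumours and had the highest levels. Sprr3 differed between the tumour types, and Sprr4 did not rise. Sequences are from RefSeq (GRCm38.p6), 5′ to 3′ on the strand of the gene, and run from 250 bases before the annotated start to 50 after it. Capitals mark TGANTCA, the letters to which AP-1 factors of the Fos and Jun families bind. The windows are chr3:92485832-92486131, minus strand for Sprr1a, chr3:92438730-92439029, minus strand for Sprr1b, chr3:92338890-92339189, plus strand for Sprr2d, chr3:92385435-92385734, plus strand for Sprr2h, chr3:92458671-92458970, minus strand for Sprr3 and chr3:92500444-92500743, minus strand for Sprr4.
Sprr1a: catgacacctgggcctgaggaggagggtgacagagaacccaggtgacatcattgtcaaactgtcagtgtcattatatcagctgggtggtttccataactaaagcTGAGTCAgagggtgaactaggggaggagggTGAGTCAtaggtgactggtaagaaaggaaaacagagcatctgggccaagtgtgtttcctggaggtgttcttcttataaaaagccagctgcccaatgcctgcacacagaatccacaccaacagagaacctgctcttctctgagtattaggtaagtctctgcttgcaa
Sprr1b: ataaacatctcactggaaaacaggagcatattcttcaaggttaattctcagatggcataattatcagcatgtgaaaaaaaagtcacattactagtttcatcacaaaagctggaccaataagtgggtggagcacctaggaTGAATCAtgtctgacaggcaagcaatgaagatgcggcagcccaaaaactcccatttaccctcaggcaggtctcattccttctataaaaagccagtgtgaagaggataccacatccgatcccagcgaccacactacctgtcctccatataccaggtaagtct
Sprr2d: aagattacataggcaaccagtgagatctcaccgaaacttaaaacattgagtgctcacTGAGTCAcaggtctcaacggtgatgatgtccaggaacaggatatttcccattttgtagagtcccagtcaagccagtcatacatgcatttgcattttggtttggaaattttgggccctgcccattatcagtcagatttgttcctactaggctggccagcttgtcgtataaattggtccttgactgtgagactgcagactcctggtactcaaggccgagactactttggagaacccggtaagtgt
Sprr2h: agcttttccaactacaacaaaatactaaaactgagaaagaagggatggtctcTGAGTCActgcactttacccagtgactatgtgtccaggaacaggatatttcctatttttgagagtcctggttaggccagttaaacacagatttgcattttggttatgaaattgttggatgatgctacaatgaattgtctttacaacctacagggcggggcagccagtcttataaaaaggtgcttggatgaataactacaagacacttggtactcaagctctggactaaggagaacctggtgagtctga
Sprr3: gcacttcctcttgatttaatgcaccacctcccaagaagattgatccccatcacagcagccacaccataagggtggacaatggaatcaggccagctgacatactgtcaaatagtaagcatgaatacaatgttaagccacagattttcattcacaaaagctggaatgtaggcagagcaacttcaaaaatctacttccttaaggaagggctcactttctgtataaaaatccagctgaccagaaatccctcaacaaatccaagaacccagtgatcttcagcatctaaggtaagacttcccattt
Sprr4: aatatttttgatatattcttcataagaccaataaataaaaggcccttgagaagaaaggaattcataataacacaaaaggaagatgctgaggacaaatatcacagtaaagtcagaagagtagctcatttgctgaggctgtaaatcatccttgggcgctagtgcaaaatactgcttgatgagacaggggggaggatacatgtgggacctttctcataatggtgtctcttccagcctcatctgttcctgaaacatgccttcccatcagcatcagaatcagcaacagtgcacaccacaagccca

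All 10 members had a promoter window in RefSeq. TGANTCA was searched on both strands and was present in the windows of 6 of them, which compares with 7.93% of 27025 promoters of the same length. In Sprr2b, Sprr2d, Sprr2e and Sprr2h it began 195, 193, 193 and 198 bases before the start, in Sprr1b 111 bases before it, and in Sprr1a at 146 and 116 bases. These letters were not in the windows of Sprr2a1, Sprr2a3, Sprr3 and Sprr4. The annotated start of Sprr4 lies on an atg, and its only annotated exon has 231 bases. Its window may thus not cover its promoter, and motifs missing there are no finding about that promoter. The stricter TGAGTCA, which overlaps TGANTCA, was in 5.17% of all promoters and in the windows of 5 members, all those with TGANTCA except Sprr1b. TATAAA, a form of the TATA box, was found on either strand in 7 members, all but Sprr2a1, Sprr2a3 and Sprr4, against 14.2% of all promoters. The Sprr2a1 and Sprr2a3 windows end within a stretch that in Sprr2b lies just before its TATAAA. Their lack of TATAAA therefore depends on where the annotated starts lie. Over aligned bases the window of Sprr2d was 89.6% identical to that of Sprr2e and 71.1% to that of Sprr2h. The windows of Sprr2a1 and Sprr2a3 were the same over 272 aligned bases. Genes of 1 family share descent, and such matches are a description only.

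The libraries held 45715309 to 72609771 counts, and levels below are in CPM, counts scaled to library size with edgeR (TMM). The deposited counts had been adjusted by the authors for a sequencing batch that the labels do not name. In a set of 4 tumours (Ivl 1, 2 and 3 and K5 1), 96.6% of 13954 genes had a mean CPM that differed by under 0.1 log2 from their mean over the 15 remaining libraries, although those 15 include the 4 skin samples. For the 10 members the set differed from the other 15 libraries by -0.26 to 0.11 log2. Results are therefore given with all 19 libraries and within the other 15 (Ivl n = 3, K5 n = 4, K14 n = 4, skin n = 4). Rn7sk, an RNA without a poly(A) tail, ranged from 2280 to 3280 CPM of the library total in skin. In the 11 tumours outside the set it ranged from 5.10 to 13.3. Within the set it was 1280 in Ivl 2 and 934 in Ivl 3, but 2.12 in Ivl 1 and 2.36 in K5 1. Its part in the results was not tested. Markers of basal keratinocytes (6 genes summed) ranged from 3800 to 7768 CPM in skin, 10720 to 58630 in Ivl tumours and 42780 to 66510 in K5/K14 tumours, and none of these markers was at 0 in every library of a group.

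Sprr1a and Sprr1b, the members with the highest levels, were raised in both kinds of tumour, and Sprr1b by far the more. Sprr1b stood at 49.2, 9.44, 27.6 and 23.4 CPM in the 4 skin libraries. In Ivl tumours its lowest value was 74.4, its median 1907 and its highest 3023 CPM, in K5 tumours the values were 3554, 1877, 2357, 2341 and 2647, and in K14 tumours 1626, 1873, 3888 and 3258. All 15 tumours lay above all 4 skin samples, the lowest tumour being Ivl 3. Sprr1b rose by 5.97 ± 0.80 (SE) on the log2 scale in Ivl tumours (edgeR, adjusted p = 2.34e-05) and by 6.57 ± 0.81 in K5/K14 tumours (adjusted p = 4.29e-06). Within the 15 libraries the Ivl value was larger, at 6.62 ± 0.48.

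Sprr1a had the highest level of the members in normal skin. It had 145, 49.4, 343 and 543 CPM in skin. The Ivl tumours had 222 at the lowest, a median of 1755 and 2156 at the highest, K5 tumours 1585, 830, 2203, 2284 and 2203, and K14 tumours 1196, 876, 3383 and 2664. Ivl 3 fell among the skin samples and the other 14 tumours above them. The rise was 2.54 ± 0.64 log2 in Ivl tumours (adjusted p = 0.00502) and 2.82 ± 0.63 in K5/K14 tumours (adjusted p = 0.0011), and without skin 4, the highest skin sample, the latter was 3.41.

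The 6 Sprr2 members were close to absent in normal skin and were all raised in tumours. Their sum was 6.71, 2.23, 9.54 and 15.02 CPM in skin. It ranged from 50.03 in Ivl 3 through a median of 816 to 1138 CPM in Ivl tumours, was 1095, 510, 1257, 766 and 1528 in K5 tumours, and 701, 778, 1606 and 1329 in K14 tumours. No tumour overlapped the skin samples. The Sprr2 sum rose by 6.45 ± 0.78 log2 in Ivl tumours (adjusted p = 1.94e-05) and by 6.99 ± 0.80 in K5/K14 tumours (adjusted p = 2.5e-06), and within the 15 libraries the rises were 6.89 ± 0.61 and 6.98 ± 0.59. With every one of the 13 Sprr2 genes of the table in the sum they were 6.93 and 7.31.

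Sprr2d and Sprr2h were the main Sprr2 transcripts. Sprr2d had 0.791, 0, 2.05 and 1.09 CPM in skin. Its tumour range was 5.83 to 711 CPM, with medians of 346 in Ivl, 443 in K5 and 384 in K14. The 2 lowest tumours were Ivl 3 (5.83) and Ivl 1 (31.2), and the next was K5 2 with 185. Its log2 fold change was 8.05 ± 1.32 in Ivl tumours (adjusted p = 0.000139) and 8.83 ± 1.36 in K5/K14 tumours (adjusted p = 4.46e-05). Sprr2h kept the highest skin level of the 6 at 5.58, 1.46, 4.77 and 13.3 CPM. It reached 36.2 to 338 CPM in Ivl, 192 to 513 in K5 and 170 to 467 in K14 tumours, with Ivl 1 and Ivl 3 again at the low end. Sprr2h rose by 4.97 ± 0.78 and 5.75 ± 0.80 log2 (adjusted p = 8.01e-05 and 1.45e-05), the smallest rise among the Sprr2 members.

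Sprr2b had 0, 1, 1 and 1 counts in the skin libraries. Its tumour values ran from 0.429 CPM in Ivl 3 to 89.8 in Ivl 6. Against the 3 counts pooled over skin, mean Sprr2b was 5950-fold higher in Ivl tumours (95% counting interval 2040 to 28900) and 4100-fold higher in K5/K14 tumours (1400 to 19900), and edgeR called both (adjusted p = 2.17e-05 and 8.69e-06). Such intervals cover counting error only. Sprr2e was carried by a single skin library, with 85 counts (0.797 CPM) in skin 3 and 0 in the other 3. Sprr2e rose by 8.22 ± 1.59 log2 in Ivl tumours (adjusted p = 0.000653) and 8.28 ± 1.58 in K5/K14 tumours (adjusted p = 0.000341). Against the other 3 skin libraries, at a floor of 3 counts per library, the Ivl mean of Sprr2e was at least 1840-fold higher. For the K5/K14 mean this bound was 1920-fold.

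Sprr2a1 and Sprr2a3 share reads, and both were called in both comparisons. Sprr2a3 had 0.224 to 1.25 CPM in skin, 1.03 to 259 in Ivl, 28.8 to 127 in K5 and 189 to 253 in K14 tumours, and its log2 fold change was 7.70 ± 1.24 in Ivl and 7.78 ± 1.23 in K5/K14 tumours (adjusted p = 0.000119 and 6.09e-05). Sprr2a1 had 0.119 to 0.665 CPM in skin, 0.429 to 85.3 in Ivl, 5.55 to 29.1 in K5 and 22.9 to 126 in K14 tumours, with log2 fold changes of 6.57 ± 1.4 and 7.00 ± 1.41 (adjusted p = 0.00143 and 0.000522). Single libraries moved some of these values by more than 1.5 times. Leaving out skin 3 gave 7.32 and 7.75 for Sprr2a1 in Ivl and K5/K14 tumours, 8.37 for Sprr2a3 in K5/K14 tumours, and 8.68 and 9.47 for Sprr2d. Leaving out skin 4 gave 5.61 and 6.4 for Sprr2h, and leaving out Ivl 1 gave 5.87 for Sprr2a1 in Ivl tumours. Every 1 of these stayed under an adjusted p of 0.05.

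**Figure D1:**
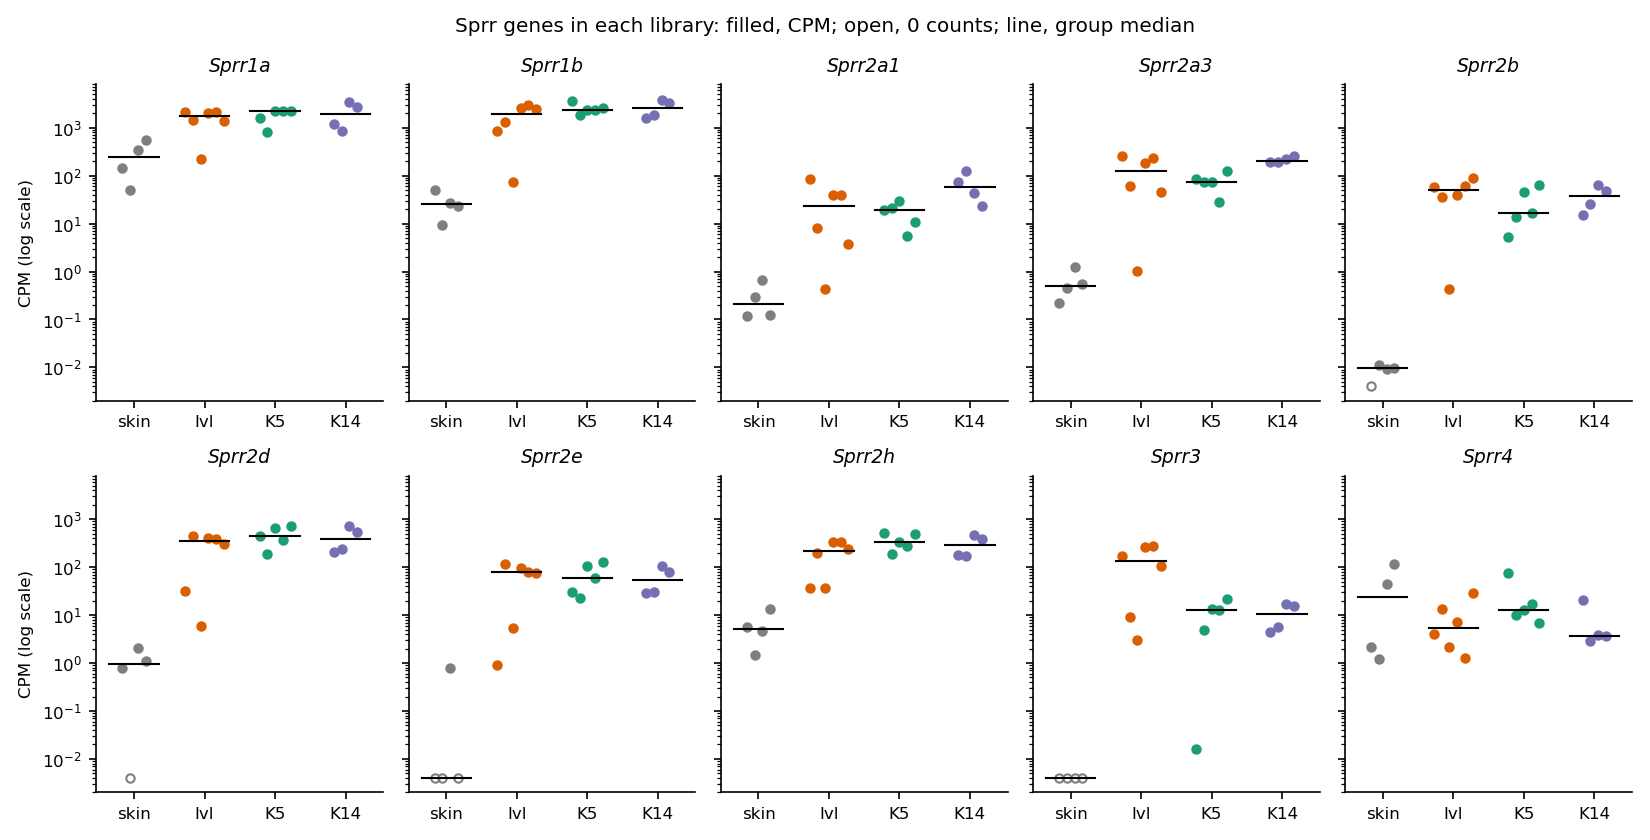
CPM of each of the 10 Sprr genes (log axis) in 4 skin, 6 Ivl, 5 K5 and 4 K14 libraries; points are libraries, open points are libraries with 0 counts drawn at the bottom, and lines are group medians. Sprr1b and the Sprr2 genes lie 1 or more orders of magnitude above skin in most tumours, Sprr3 is at 0 in all 4 skin libraries, and Sprr4 overlaps between the groups.

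Sprr3, a member with repeats of its own that is typical of the oesophagus and other internal squamous linings, was not seen in normal skin at all. It had 0 counts in all 4 skin libraries, where 3 counts per library correspond to 0.0327 CPM on average. The 6 Ivl tumours had 171, 9.01, 3.001, 258, 281 and 104 CPM. K5 tumours had 0.0159 (1 count), 4.91, 13.2, 12.7 and 21.3 CPM, and K14 tumours 4.40, 5.62, 17.5 and 15.6. Ivl 2 and Ivl 3 lay among the K5 and K14 tumours, and the other 4 Ivl tumours above them all. Set against that floor, Ivl tumours had at least 4220-fold higher mean Sprr3. For K5/K14 tumours the bound was 324-fold (edgeR, adjusted p = 0.000239 and 0.00083). Within the 15 libraries the bounds were 6570-fold and 364-fold.

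Sprr4 did not follow the other members. Skin had 2.14, 1.19, 44.8 and 116 CPM, with skin 3 and skin 4 far above skin 1 and skin 2. The Ivl tumours ran from 1.27 through a median of 5.52 to 28.7 CPM, K5 tumours had 74.6, 10.3, 13.0, 16.7 and 6.78, and K14 tumours 20.97, 2.84, 3.83 and 3.67. The groups overlapped throughout. The log2 difference from skin was -2.12 ± 1.14 in Ivl (adjusted p = 0.141) and -1.27 ± 1.02 in K5/K14 tumours (adjusted p = 0.282), neither past the threshold. It turned to 0.10 in K5/K14 tumours without skin 4, the sample that held 70.2% of all Sprr4 counts of skin, was -0.79 in Ivl tumours without it, and -2.07 in K5/K14 tumours without K5 1 and -2.89 in Ivl tumours without Ivl 6, none of them past the threshold. Fibroblast markers (6 genes summed) were likewise high in skin 3 and 4, at 3276, 815, 13190 and 18180 CPM in the 4 skin samples, while hair follicle markers (7 genes) stood at 2665, 109, 1360 and 1070 CPM. Their part in Sprr4 was not tested.

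Counted over the list, 9 of 10 members were raised in Ivl tumours and 9 of 10 in K5/K14 tumours, and none was lowered. Of the 32031 genes tested, 20.4% were raised in Ivl tumours and 23.2% in K5/K14 tumours. The median log2 fold change of the 10 members was 7.14 in Ivl and 7.39 in K5/K14 tumours, also with Sprr3 set at its bound, against -0.46 and -0.60 for all genes. All 10 passed the filter on low counts (at least 5 in at least 1 library), but Sprr2b and Sprr3 passed it through tumours alone, so these medians are no support of their own. The same 9 members were raised within the 15 libraries, where 22.2% and 23.9% of 31971 genes were. All Ivl tumours lay above all skin samples for 6 members (13.2% of all genes), and all K5/K14 tumours for 9 members (16.7%). The difference was Sprr1a, Sprr2a1 and Sprr2a3, for which Ivl 3 fell within the skin range. Of the 7 other Sprr genes, 6 were raised in Ivl and 7 in K5/K14 tumours. The 2 comparisons share their skin samples.

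**Figure D2:**
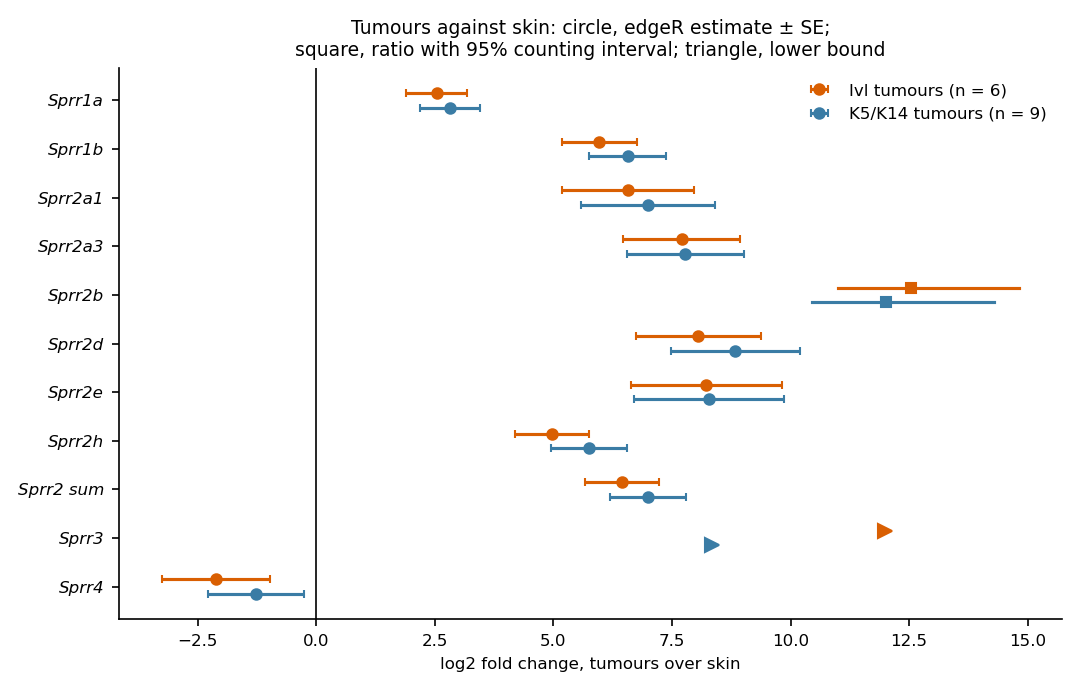
Log2 fold change of each Sprr gene and of the Sprr2 sum in Ivl (n = 6) and K5/K14 (n = 9) tumours over skin (n = 4). Circles are edgeR estimates with their SE, squares for Sprr2b are ratios to 3 pooled skin counts with 95% counting intervals, and triangles for Sprr3 are lower bounds of 12 and 8.34. Every gene but Sprr4 lies to the right of 0.

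Per kilobase of annotated exon, the order of the members over the 15 tumours by median was Sprr1b (2840 CPM per kb), Sprr1a (2550), Sprr2d (571), Sprr2h (377), Sprr2e (115), Sprr2b (50.4), Sprr2a3 (43.9), Sprr4 (30.4), Sprr3 (10.8) and Sprr2a1 (7.64). Sprr1a was above Sprr2d, and Sprr2h above Sprr2e, in 15 of 15 tumours, while Sprr2b and Sprr2a3 traded places, with Sprr2b the higher in 7. Sprr1b was above Sprr1a in 11 of the 15. The exons annotated for Sprr2a1 and Sprr2a3 are several times longer than those of the other copies and that of Sprr4 much shorter, which moves their places in this order. In skin the order was another, with Sprr1a at a median of 303 CPM per kb, Sprr4 at 102 and Sprr1b at 30.7. Sprr1a made up 71.4 to 80.7% of all counts of the 10 members in skin and 24.8 to 63.1% in tumours, so the ranges did not overlap. Sprr1b held 3.35 to 24.3% in skin and 21.2 to 58.1% in tumours. The 10 members together took 0.0515% ± 0.0388 (SD, n = 4) of all counts in skin, 0.370% ± 0.180 in Ivl tumours (n = 6) and 0.482% ± 0.145 in K5/K14 tumours (n = 9).

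Within the Sprr2 sum, Sprr2h led in all 4 skin libraries with 50 to 88.2% of its counts. Sprr2d led in 11 of 15 tumours, with a median share of 40.0% over the 15 and Sprr2h next at 29.7%. Ivl 3 was led by Sprr2h (73.7%). Ivl 1 was led by Sprr2a3 (54.9%), and Sprr2d fell to 6.61% and Sprr2e to 0.192% there. In CPM, Ivl 1 had the highest Sprr2a3 of all tumours (259) and the lowest Sprr2e (0.907), and its Sprr2f and Sprr2g were at 2.55 and 1.399 CPM against 42.6 to 172 and 24.4 to 163 in the other 5 Ivl tumours. Low Sprr2f was also seen in K5 1 (1.763 CPM) and K5 2 (8.33 CPM), where Sprr2g stood at 133 and 46.9 CPM. K5 1 and K5 2 were led by Sprr2h with 46.8% and 37.7% and Sprr2d next.

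**Figure D3:**
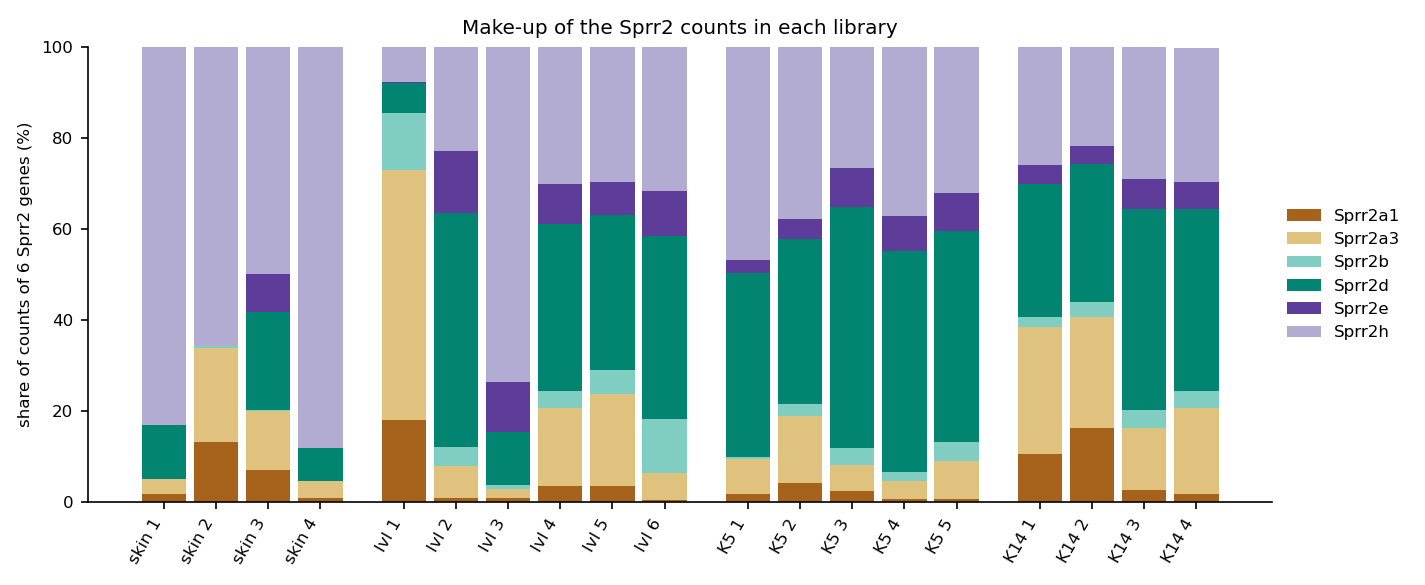
Share of the counts of the 6 Sprr2 members (%, stacked to 100) taken by each gene in each of the 19 libraries. Sprr2h is the main part in skin and Ivl 3, Sprr2d in most tumours, and Sprr2a3 in Ivl 1.

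Ivl tumours were next set against K5 and K14 tumours, which the study merged. None of the 10 members passed the threshold with all 19 libraries, where 2.36% of all genes did. One member, Sprr3, had an unadjusted p under 0.05 by edgeR, as did 6754 of the 32031 genes tested. DESeq2 called Sprr3 alone of the members. The Sprr2 sum differed by -0.54 ± 0.48 log2 (adjusted p = 0.545) and by -0.09 ± 0.44 within the 15 libraries, and Sprr1b by -0.60 ± 0.50 and 0.11 ± 0.35. Sprr3 was 3.7 ± 0.95 log2 higher in Ivl tumours (adjusted p = 0.0559). Within the 15 libraries Sprr3 was called, at 4.17 ± 0.48 log2 or 18.0-fold (adjusted p = 0.0052). Values there were 104 to 281 CPM in 3 Ivl tumours and 4.40 to 21.3 in 8 K5/K14 tumours, with no overlap. The 15 leave out Ivl 2 (9.01 CPM) and Ivl 3 (3.001 CPM), the Ivl tumours that lay among the K5 and K14 tumours. They also leave out Ivl 1 (171 CPM) and K5 1 (0.0159 CPM). Within the 15, 0.41% of all genes were called, and the share of all genes without overlap was not counted. Left out 1 at a time, each of those 15 libraries still gave a difference of 3.93 to 4.50 (adjusted p from 0.0033 to 0.031), an alternative chosen after seeing the data. With all 19, leaving out Ivl 3 alone brought Sprr3 past the threshold (3.95, adjusted p = 0.045), as did a term for the set of 4 (4.84 ± 1.02, adjusted p = 0.038). With a block for the replicate number Sprr3 was not called (3.47 ± 1.39, edgeR, adjusted p = 0.273).

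K5 and K14 tumours did not differ in any member by edgeR's test, at 0 of 10 with all libraries, where 0% of all genes were called, and 0 of 10 within the 15 libraries, where 0.0532% were. DESeq2 called 0. With all 19 libraries edgeR gave 0 members an unadjusted p under 0.05, within the 15 libraries it gave 2, Sprr2a1 (adjusted p = 0.436) and Sprr2a3 (adjusted p = 0.395), and DESeq2 gave 1, Sprr2a1 (adjusted p = 0.466). By edgeR, 1945 of 32031 genes had an unadjusted p under 0.05 with all libraries and 3231 of 31971 within the 15. The largest differences were those of Sprr2a1 (-1.95 ± 0.97 log2, adjusted p = 0.832) and Sprr4 (1.63 ± 1.22, adjusted p = 0.888). Sprr2a3 came next at -1.46 ± 0.83 (adjusted p = 0.86) and -1.49 ± 0.55 within the 15 libraries, and its K5 values (28.8 to 127 CPM) all lay below its K14 values (189 to 253 CPM). Sprr2a2, which shares reads with both, had 7.74 to 31.2 CPM in K5 and 64.6 to 139 in K14 tumours, again with no overlap. Its difference was -2.09 ± 0.97 (adjusted p = 0.814), or -2.22 ± 0.52 within the 15 libraries (adjusted p = 0.182). How many of all genes separate K5 from K14 tumours without overlap was not counted, so these ranges are a description only. The SE of the Sprr2 sum was 0.61 around a difference of -0.10, so a difference of the size of 1 log2 could have been missed.

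Members were then compared over the 15 tumours, as log2(CPM + 1), in 10 pairs drawn from Sprr1a, Sprr1b, the Sprr2 sum, Sprr3 and Sprr4, with two-sided permutation tests adjusted over the 10. Of these 3 passed, those among Sprr1a, Sprr1b and the Sprr2 sum, which all fell lowest in Ivl 3. Sprr1b and the Sprr2 sum had r = 0.960 (p = 6e-05, adjusted p = 0.0006) and rho = 0.825 (adjusted p = 0.0034), and r = 0.682 without the 2 tumours farthest from the median of Sprr1b. Sprr1a had r = 0.831 with Sprr1b (permutation, adjusted p = 0.0172; rho = 0.611, adjusted p = 0.0598), and r = 0.396 without the 2 tumours farthest from the median of Sprr1a. Sprr1a and the Sprr2 sum had r = 0.889 (permutation, adjusted p = 0.00175) and rho = 0.725, and r = 0.526 without 2 tumours. In the 11 tumours outside the set of 4, which leave out Ivl 3, the 3 pairs had r = 0.801 to 0.858 (permutation, adjusted p = 0.00415 to 0.00937), and 0.743 to 0.85 without 2 more tumours. In the 9 K5/K14 tumours r was 0.761 to 0.832 (exact permutation test, adjusted p = 0.0647 for each) and in the 6 Ivl tumours 0.913 to 0.982 (exact permutation test, adjusted p = 0.0694 to 0.157), so within a tumour type none passed. Total counts of a library scale all members alike, which these values share.

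Sprr3 and Sprr4 did not move with the others past the threshold. With the Sprr2 sum, Sprr3 had r = 0.231 and rho = 0.339 (permutation, adjusted p = 0.538 and 0.386), and Sprr4 r = 0.221 and rho = -0.136 (permutation, adjusted p = 0.538 and 0.787). Sprr3 falls into a high group of 4 Ivl tumours and a low group, so a pooled r says little of it. Within Ivl tumours Sprr3 had r = 0.722 with the Sprr2 sum and 0.827 with Sprr1a (exact permutation test, n = 6, adjusted p = 0.153 and 0.0694). Within K5/K14 tumours it had r = 0.405 and rho = 0.783 with the Sprr2 sum (exact permutation test, n = 9, adjusted p = 0.493 and 0.0713). In the 11 tumours outside the set Sprr1b and Sprr3 had rho = 0.745 (permutation, adjusted p = 0.028) but r = 0.481 (adjusted p = 0.227).

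**Figure D4:**
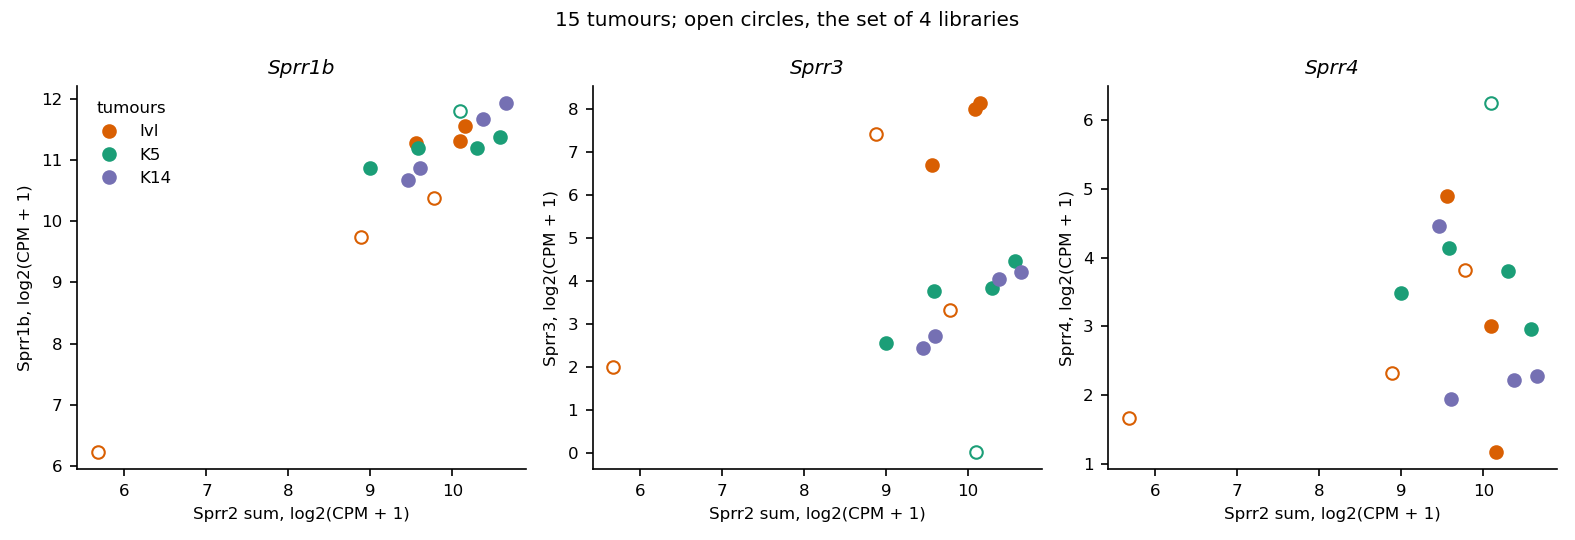
Sprr1b, Sprr3 and Sprr4 against the Sprr2 sum in the 15 tumours, all as log2(CPM + 1); open circles are the set of 4 libraries (Ivl 1, 2 and 3 and K5 1). Sprr1b rises with the Sprr2 sum (r = 0.960), with Ivl 3 alone at the lower left; 4 Ivl tumours stand high for Sprr3, and Sprr4 shows no clear line.

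The genes outside the family most like each member over the 15 tumours were listed by Pearson's r of log2(CPM + 1) among 14946 genes with a mean over 1 CPM, as a description with no test. For Sprr1b these were Lce3b (r = 0.975), a late cornified envelope gene of the same complex, Krt6b (0.975), a keratin of activated and hyperproliferative epidermis, Eno1 (0.973), a glycolytic enzyme, Gm11597 (0.963) and Gm12033 (0.962). In the 11 tumours outside the set Krt6b kept r = 0.900 while Gm11597 fell to 0.270. For the Sprr2 sum they were Gm5424 (0.962), E2f8 (0.955), a repressor of the E2F family, Gm12033 (0.948), Gm13394 (0.940) and Lce3b (0.939). Sprr3 was most like Sptssb (0.969), a subunit of serine palmitoyltransferase, Fam57a (0.964), Serpinb1a (0.937), a protease inhibitor, Brip1 (0.936), a DNA helicase, and Pitx1 (0.917), a homeobox factor, and all 5 kept r of 0.904 to 0.965 in the 11 tumours. Mean Pitx1 was 1.81 CPM in skin, 157 in Ivl and 58.6 in K5/K14 tumours. For Sprr4 the values were lower, led by Clec10a (0.834), a lectin of macrophages and dendritic cells, Slc27a6 (0.821), a fatty acid transporter, Ifngr2 (0.808), Cst6 (0.797), a cysteine protease inhibitor of the cornified layer, and Gpx4-ps2 (0.792).

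The partners of the Sprr proteins in the envelope were mostly raised too. Of 15 envelope genes outside the family, 12 were raised and 1 lowered in Ivl tumours and 12 raised and 2 lowered in K5/K14 tumours. Over all genes tested, 20.4% and 23.2% were raised and 15.5% and 38.9% lowered. The median log2 fold change of the 15 was 2.60 and 2.40. Ivl, the scaffold protein involucrin whose promoter drives Cre in the Ivl model, had 12.3 ± 3.01 CPM (SD, n = 4) in skin and rose by 4.72 ± 0.63 log2 in Ivl and 6.42 ± 0.68 in K5/K14 tumours (adjusted p = 2.29e-05 and 1.54e-06). Rptn, which encodes repetin, rose by 4.68 ± 0.74 and 4.31 ± 0.71, Csta1, a cysteine protease inhibitor, by 4.50 ± 0.57 and 5.81 ± 0.60, and Cnfn, cornifelin, by 3.61 ± 0.48 and 3.5 ± 0.47 log2 (all with an adjusted p under 0.05). Lor, loricrin, rose by 3.1 ± 0.49 and 3.31 ± 0.48 (adjusted p = 6.81e-05 and 1.86e-05). The lowered genes were Flg2, filaggrin 2, at -3.09 ± 0.83 in Ivl and -1.86 ± 0.72 in K5/K14 tumours (adjusted p = 0.00782 and 0.032), and in K5/K14 tumours Tchh, trichohyalin of the hair follicle, at -2.22 ± 0.86 (adjusted p = 0.0322); these 2 are named because they were the only ones. Between Ivl and K5/K14 tumours Ivl alone was called of the 15, where 2.36% of all genes were. Its difference was -1.7 ± 0.44 log2 (adjusted p = 0.047), and -1.0 ± 0.45 within the 15 libraries (adjusted p = 0.416).

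Of 4 transglutaminases, which cross-link the envelope, 3 were raised in both kinds of tumour. Over all genes, 20.4% were raised and 15.5% lowered in Ivl tumours, and 23.2% raised and 38.9% lowered in K5/K14 tumours. Tgm1 rose by 2.55 ± 0.31 log2 in Ivl and 2.26 ± 0.29 in K5/K14 tumours (adjusted p = 1.83e-05 and 5.76e-06). Its mean CPM was 76 ± 10.3 in skin (SD, n = 4), 443 ± 130 in Ivl (n = 6) and 363 ± 116 in K5/K14 tumours (n = 9). Tgm3 rose by 4.57 ± 0.74 and 3.62 ± 0.69 and Tgm5 by 1.35 ± 0.29 and 1.38 ± 0.28. Tgm2, the widely expressed enzyme, fell by 2.32 on the log2 scale in K5/K14 tumours (SE 0.51, adjusted p = 0.000945) and was at -1.38 ± 0.57 in Ivl tumours (adjusted p = 0.0634). Within the 15 libraries it was called in both, at -2.38 ± 0.50 in Ivl (adjusted p = 0.00128) and -2.32 ± 0.36 in K5/K14 tumours (adjusted p = 6.37e-05).

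Transcription factors known to act on differentiation genes were a further list of 16. Of them 10 were raised in Ivl and 12 in K5/K14 tumours, and none was lowered (within the 15 libraries 10 and 11, without Fos). Among all genes tested, 20.4% and 23.2% were raised (22.2% and 23.9% within the 15 libraries), and 15.5% and 38.9% lowered. Fosl1, an AP-1 factor, rose by 3.99 ± 0.71 and 4.68 ± 0.72 log2, Elf3, an ETS factor of epithelia, by 3.45 ± 0.55 and 3.56 ± 0.54, and Ehf, a relative of Elf3, by 2.87 ± 0.43 and 2.46 ± 0.41. Ovol1, a zinc finger factor, rose by 2.07 ± 0.26 in Ivl tumours and Junb by 2.50 ± 0.30 in K5/K14 tumours. For each of these the adjusted p was under 0.05. Not all AP-1 genes of the list rose. Jund rose by 1.44 and 1.24 log2, while Fosl2 (-0.08 and -0.08) and Fosb (-0.3 and -0.25) were called in neither comparison. Jun (0.77 and 1.53) and Fos (0.11 and 1.62) were called in K5/K14 tumours only. No factor of the list was called between Ivl and K5/K14 tumours, where 2.36% of all genes were.

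Keratins of the same libraries were raised alongside. Summed Krt5 and Krt14, of the basal layer, had a median of 4688 CPM in skin, 41370 in Ivl and 43970 in K5/K14 tumours. Per 100 CPM of these keratins the 10 Sprr members gave 7.92 ± 5.16 CPM (SD, n = 4) in skin, 14.8 ± 14.6 in Ivl tumours (n = 6) and 11.6 ± 2.88 in K5/K14 tumours (n = 9). The difference from skin in the mean log2 ratio was 0.75 for Ivl and 0.99 for K5/K14 tumours, less than the SD of 1.65 between skin samples, whereas the Sprr total alone differed by 3.64 and 4.42 on the log2(CPM + 1) scale, more than the skin SD of 1.51. In Ivl tumours Ivl 1 had 43.4 per 100 and the other 5 had 1.15 to 12.5. Without Ivl 1 the log2 ratio of Ivl tumours differed from skin by 0.31 and from K5/K14 tumours by -0.68 (-0.24 with it). Without skin 2, the sample with the lowest ratio (1.06 per 100), the ratio differed by -0.06 and 0.18. Beside Krt1 and Krt10 of the layers above, the values were 14.1 ± 12.1 per 100 in skin, 15 ± 7.36 in Ivl and 52.5 ± 44.0 in K5/K14 tumours, and the log2 ratio differed from skin by 0.52 and 2.02 (skin SD 1.84). Of the Sprr total in skin most was Sprr1a, so these ratios follow that gene there. Sums over members were not tested.

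**Figure D5:**
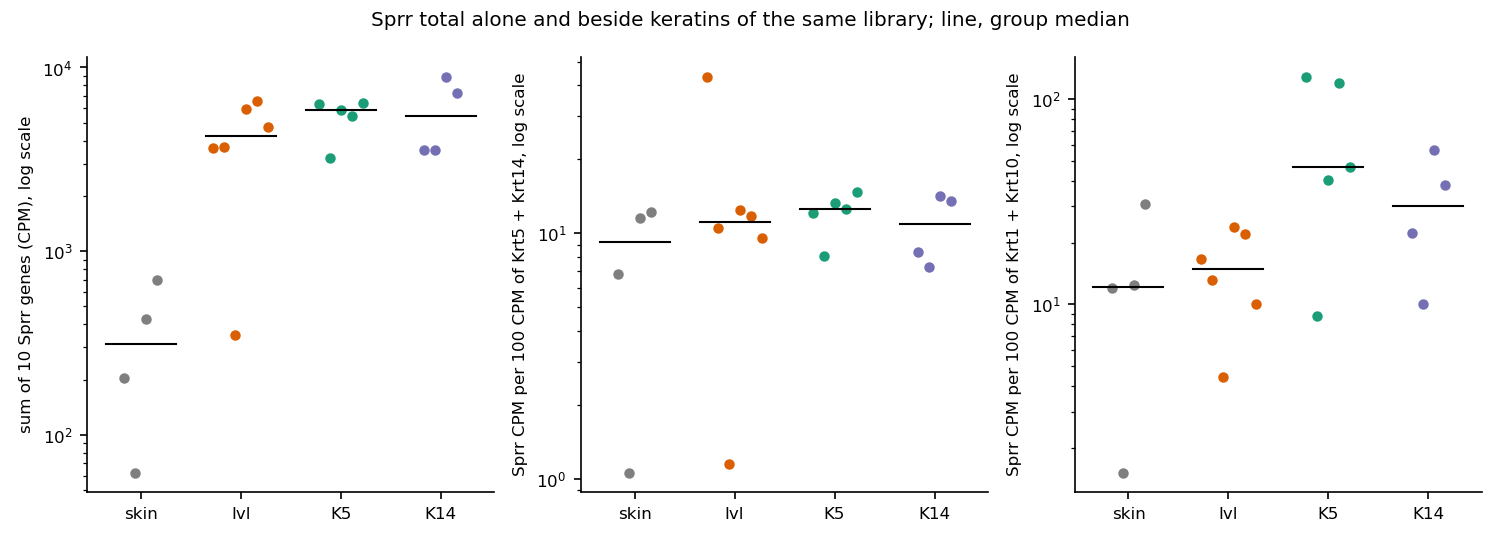
Summed CPM of the 10 Sprr genes (left), the same per 100 CPM of Krt5 + Krt14 (middle) and per 100 CPM of Krt1 + Krt10 (right), log axes, in each of the 19 libraries, with group medians as lines. Tumours other than Ivl 3 stand above skin on the left, while the groups overlap in the middle panel.

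Markers of other cell types moved with the tumours as well. All 4 markers of stressed keratinocytes and all 6 of suprabasal keratinocytes were raised in both comparisons, basal markers in 4 of 6 (Ivl) and 6 of 6 (K5/K14), and neutrophil markers in 3 of 5 in each. The share raised over all genes was 20.4% in Ivl and 23.2% in K5/K14 tumours. Summed neutrophil markers (Csf3r, Cxcr2, S100a8, S100a9 and Retnlg) ranged from 9.07 to 37.3 CPM in skin, 103 to 6576 in Ivl and 1592 to 6350 in K5/K14 tumours. Which cells made these transcripts, neutrophils or keratinocytes, cannot be told from whole tissue. Skeletal muscle markers (5 genes) ranged from 2065 to 6026 CPM in skin, 4.09 to 3622 in Ivl and 4.95 to 325 in K5/K14 tumours. All 5 were lowered in K5/K14 tumours, where 38.9% of all genes were. Fibroblast markers ranged from 815 to 18180 CPM in skin, 1464 to 10720 in Ivl and 3756 to 14910 in K5/K14 tumours. Ivl 3, the tumour with the lowest Sprr1 and Sprr2 sum values, had the highest fibroblast sum of the Ivl tumours (10720 CPM, 1464 to 3887 in the others) and the lowest suprabasal sum (10650 CPM, 28440 to 55870 in the others), with 1094 CPM of skeletal muscle and 624 of hair follicle markers. No defining marker of these lists was at 0 throughout a group. Their part in the Sprr values was not tested.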

How the data were processed

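Poly(A) libraries from 15 tumours and 4 skin samples were made with a strand-specific kit and sequenced as read pairs of 101 bases. The deposited values are estimated counts: per the labels and the study's methods, the authors trimmed reads with Trim Galore, aligned them with HISAT2 2.1.0 to GRCm38, assigned them with featureCounts (Subread 1.6.3) and used ComBat-seq to remove a batch effect, without scaling for depth. Plain counts had been assumed when the design was written. The batch of a library is not given in the sources used here. The adjustment can pull the set of 4 tumours towards the mean of the other libraries. All 19 columns were matched to samples, and 34694 of 34807 identifiers to GENCODE M21 (GRCm38).

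A gene was tested if any library held 5 or more of its counts (32031 genes). edgeR 4.0.16 (R 4.3.3, TMM, quasi-likelihood F test, two-sided, Benjamini-Hochberg over all genes) was fitted to all 19 libraries, with K5 and K14 merged except between themselves, and adjusted p under 0.05 was called. The code was tested on simulated data. DESeq2 1.42.0 was an alternative, with other scaling, filters, library sets, a replicate block and each library left out. The members and lists were chosen with earlier results of these data known. Named beside the members were all Sprr genes, the 5 most alike genes, the 4 called genes of each context list with the largest change, and Tgm1, Ivl and Lor. The other AP-1 genes of the transcription factor list were named afterwards. Replicates all differed beyond counting noise, with a chi-square of at least 25.9 per degree of freedom in 37 pairs.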

Additional observations from a re-analysis of the deposited data

Results flagged for a closer look

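In 55 sets of libraries (10 members and the Sprr2 sum in skin, Ivl, K5, K14 and K5/K14), the gap of the highest or lowest log2(CPM + 1) value to its neighbour was divided by the whole range, and 9 passed Dixon's 95% limit. Chance flags about 1 in 20 such sets, and the sets share libraries. Ivl 3 was the lowest Ivl tumour in 5 of them, with a gap of 0.805 for Sprr1a (222 CPM), 0.660 for Sprr1b (74.4 CPM), 0.642 for Sprr2a3 (1.03 CPM), 0.789 for Sprr2b (0.429 CPM) and 0.717 for the Sprr2 sum (50.03 CPM). K5 1 was the lowest K5/K14 tumour for Sprr3 with a gap of 0.541 (1 count), and K14 1 the highest K14 tumour for Sprr4 with 0.867 (20.97 CPM). Skin 3 was the highest skin sample for Sprr2e with a gap of 1 (85 counts against 0 in the others), and skin 1 the lowest for Sprr2b with 0.834, at 0 counts against 1 in each of the others. Ivl 3 also had the highest fibroblast markers (10720 CPM) and the lowest suprabasal markers (10650 CPM) of the Ivl tumours, and their part was not tested. Ivl 3 and K5 1 belong to the set of 4 tumours described in the report.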

How the results depend on the processing

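Against skin, 9 members were called in Ivl and in K5/K14 tumours under every alternative run, and the Sprr2 sum rose by 6.11 to 6.93 and 6.67 to 7.42 log2. Another scaling (DESeq2 size factors) moved the median log2 fold change of all genes from -0.46 to -0.59 in Ivl and from -0.60 to -0.71 in K5/K14 tumours, and turned no called member. TMM factors were 1.43 to 1.66 in skin and 0.806 to 1.15 in tumours. Scaled by library total alone, the Sprr total differed from skin by 2.93 log2 in Ivl (3.64 with TMM) and 3.61 in K5/K14 tumours (4.42 with TMM). Between Ivl and K5/K14 tumours the count of called members went from 0 to 1 (Sprr3) with filterByExpr, within the 15 libraries, with a term for the set of 4 and with DESeq2, and was 0 to 1 over single libraries left out. Shares of all genes called are given only for the main edgeR fit and within the 15 libraries. Counts of members under other alternatives are a description only. The correlated pairs past the threshold went from 3 to 0 within Ivl and to 0 within K5/K14 tumours, which hold fewer samples. With Krt1 + Krt10 as denominator, the K5 against K14 difference in the Sprr ratio moved from 0.20 to 0.87 and the Ivl against K5/K14 difference from -0.24 to -1.49.

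Replicate numbers did not pair the libraries: of 25 same-numbered pairs 9 correlated above 0.1 (median r = -0.037), and 3 of 19 libraries correlated best with their own number. With a replicate block 9, 9, 0 and 0 members were called in the 4 comparisons, and the share of all genes called with it is not given here. The Sprr2 sum was 6.41, 7.03, -0.62 and -0.24, and Sprr3 was 3.47 in Ivl against K5/K14 tumours (edgeR, adjusted p = 0.27).

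Differences that passed no threshold changed sign, and the cause was not tested. In Ivl against K5/K14 tumours, within the 15 libraries Sprr1b was 0.11, Sprr2a3 0.08, Sprr2e 0.26 and Sprr4 0.34, with the set of 4 as a term Sprr2a3 was 0.15 and Sprr2e 0.31, and with the block Sprr2a1 was 0.17. In K5 against K14 tumours, Sprr3 was 0.28 within the 15 libraries, Sprr1b 0.22 and the Sprr2 sum 0.06 with the set of 4 as a term, and Sprr2e -0.07 with the block. With single libraries left out, Ivl against K5/K14 gave -1.12 to 0.05 for Sprr2a1, -0.40 to 0.17 for Sprr2a3 and -0.35 to 0.20 for Sprr2e. K5 against K14 gave -0.41 to 0.21 for Sprr1a, -0.22 to 0.18 for Sprr1b, -0.04 to 0.55 for Sprr2d, -0.16 to 0.58 for Sprr2e, -0.48 to 0.29 for Sprr3 and -0.28 to 0.14 for the Sprr2 sum. Sprr4 in K5/K14 tumours against skin gave -2.07 to 0.10. Depth limits Sprr2b, Sprr2e and Sprr3 in skin, where a few counts or none were read.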
